A study of Mus musculus with 4 samples.

Results

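The oncofetal RNA-binding and HMGA genes described here were the 7 mouse genes Lin28a, Lin28b, Igf2bp1, Igf2bp2, Igf2bp3, Hmga1 and Hmga2, taken by symbol from a list that was drawn up with earlier results of these data known. They were 7 of 54752 gene identifiers in the count table. The RNA came from whole hearts of mice at postnatal day 14, an age at which the series text still calls the hearts neonatal. There were 2 wild-type libraries and 2 libraries from hearts labelled Carm1 mutant, here called mutant-labelled. Carm1 encodes an arginine methyltransferase of histones and coactivators. The labels give no allele, strain, sex or Cre driver, and replicates are numbered without a statement that each was a separate animal. The p-values therefore measure the spread between these libraries, which may be technical.

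Lin28a and Lin28b encode RNA-binding proteins of embryonic cells that block the maturation of the let-7 microRNAs. The let-7 microRNAs accumulate as tissues mature and bind a short complementary site in the 3′ untranslated region (UTR) of their target messages, which lowers the level of those messages. The Lin28, Igf2bp and Hmga genes are themselves textbook let-7 targets, so that Lin28 and let-7 oppose each other. The IGF2BP proteins bind messages, many of them carrying N6-methyladenosine (m6A), and stabilise them or control their translation. The HMGA proteins bend AT-rich DNA through short motifs called AT hooks and are abundant in proliferating embryonic cells. Most of these genes are silenced in adult tissue and return in many tumours, which is what the word oncofetal refers to.

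The sequence shared by the 7 genes is the site for let-7, and it is shown because it ties the members to each other. Of 11 mature mouse RNAs of the let-7 family in RefSeq (GRCm38.p6), 10 had the same seed, bases 2 to 8 of the microRNA, and let-7j differed. The mature let-7a is encoded on the minus strand at chr13:48538239-48538260, and the capitals mark its seed.
let-7a: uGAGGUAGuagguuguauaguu
A search of the longest annotated 3′ UTR of each member (GENCODE M21, GRCm38), on the sense strand, for the 7 letters CTACCTC that pair with this seed found 17 matches, with at least 1 in each of the 7 genes. The match nearest to the stop codon in each gene is given here within 30 bases of the sense strand, with the match in capitals.
Lin28a, chr4:134005181-134005210, minus strand: cacagcctgttgaaCTACCTCatttttgcc
Lin28b, chr10:45381014-45381043, minus strand: cccgggcgggaagtCTACCTCatgcaagca
Igf2bp1, chr11:95961770-95961799, minus strand: ctgtgcgaagtaaaCTACCTCaaggtgtga
Igf2bp2, chr16:22059465-22059494, minus strand: cacacaaataaaagCTACCTCaggtgtttt
Igf2bp3, chr6:49086779-49086808, minus strand: gcatttttactcaaCTACCTCaggtattca
Hmga1, chr17:27563278-27563307, plus strand: cctctgttcacaaaCTACCTCtggacggtt
Hmga2, chr10:120364216-120364245, minus strand: ccgacattcaatttCTACCTCagcatcagt

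Lin28b, Igf2bp1 and Hmga2 each had 4 matches, Lin28a had 2, and Igf2bp2, Igf2bp3 and Hmga1 had 1 each. Among 21026 genes with an annotated 3′ UTR, 9.02% had at least 1 match, 1.08% had at least 2, and 12 genes (0.057%) had at least 4. The 7 UTRs were long, from 1183 bases in Hmga1 to 6337 in Igf2bp1 against a median of 960 over all genes. Per kilobase of UTR the members held between 0.472 matches (Igf2bp3) and 1.33 (Hmga2), against 0.07 over all 3′ UTRs. In 9 of the 17 matches the next base was an A, as in 6 of the 7 sites above, Hmga1 being the exception. The distance from the stop codon to the nearest match ran from 36 bases in Lin28b and 58 in Hmga2 to 1715 in Igf2bp1. A match is a stretch of letters, and these libraries do not show whether let-7 binds it.

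**Figure D1:**
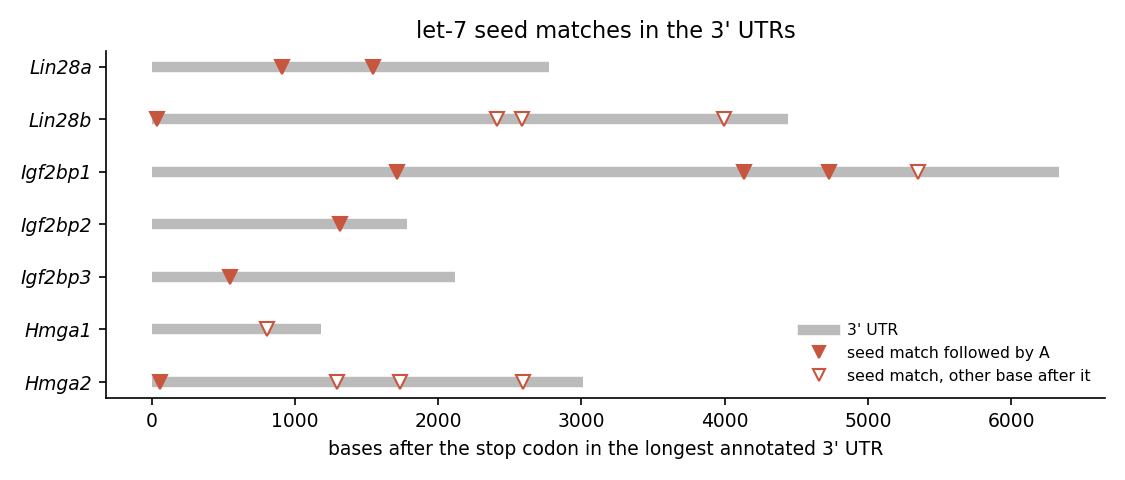
Positions of the let-7 seed matches in the longest annotated 3′ UTR of each member, with distance from the stop codon in bases on the horizontal axis and 1 grey bar per gene drawn to the length of its UTR. Filled triangles are matches followed by an A and open ones are followed by another base. Lin28b, Igf2bp1 and Hmga2 hold 4 matches each, and the matches nearest to a stop codon lie 36 bases (Lin28b) and 58 bases (Hmga2) after it.

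Library totals were between 11677604 counts (mutant-labelled replicate 2) and 22217442 counts (mutant-labelled replicate 1). A total of 15283 genes were tested with edgeR's quasi-likelihood test after scaling by TMM, which estimates library size from the bulk of genes. Levels are CPM, counts scaled to a common library size by TMM, ± is the SD over n = 2 libraries, and FDR is the Benjamini-Hochberg adjusted p over all genes tested, with a gene called at 0.05. Of all genes tested, 7.37% were called. In the mutant-labelled hearts 2.79% were called higher and 4.58% lower. The targeted gene, Carm1, had 45.9 and 52.3 CPM in wild type against 35.7 and 31.8 CPM, with a log2 fold change of −0.54 (SE 0.19, edgeR FDR 0.114), and a count over the whole gene does not check an allele. Carm1 was called lower with a length trend in the fit (edgeR FDR 0.0308), and scaling by library totals gave −0.16 (FDR 0.626). With 1 library left out, its log2 fold change lay between −0.64 and −0.47, and whether it was called depended on the library left out. Crossed replicate blocks, a pairing chosen from these same libraries, also gave a call (FDR 0.0219). Summed counts of 4 Y-linked genes (Uty, Ddx3y, Eif2s3y, Kdm5d) were 1769 and 2236 in wild type against 7 and 0, and Xist had 12 and 15 counts against 8116 and 3921, so genotype and sex cannot be told apart. Of 10 markers of proliferating cells 9 were called higher, and their summed level was 28.4 and 39.4 CPM in wild type against 130 and 138 CPM. All 7 cardiomyocyte markers had log2 fold changes below 0, 1 of them called, with summed levels of 74180 and 64460 CPM against 37580 and 40500 CPM. The sums of 7 fibroblast markers (3156 and 3670 against 5235 and 5448 CPM) and of 7 endothelial markers (1013 and 1317 against 1735 and 1504 CPM) did not overlap between the groups. Among single genes tested, 30.3% were without overlap in this direction. The part that these differences in marker levels have in the results below was not tested. In bulk RNA, fewer cells of a type and less RNA per cell cannot be told apart.

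The members differed widely in abundance. Levels of different genes were compared as CPM per kilobase of the longest protein-coding transcript. Hmga1 was the most abundant member, with 22.2 and 17.0 CPM per kilobase in wild type against 12.6 and 6.21 in mutant-labelled hearts. Igf2bp2 came next with 3.24 and 3.403 against 3.98 and 2.89 CPM per kilobase, below the lowest Hmga1 library. Igf2bp3 had 0.237 and 0.352 against 0.440 and 0.660 CPM per kilobase, below every Igf2bp2 library. Igf2bp1, Lin28b, Hmga2 and Lin28a all stayed under 0.1 CPM per kilobase in each library, and their ranges overlapped. Against all genes tested, the mean level of Hmga1 lay at the 83.2 percentile in wild type and the 71.5 percentile in the mutant-labelled hearts. Igf2bp2 lay at the 46.6 and 46.3 percentiles, and Igf2bp3 at the 9.53 and 13.9 percentiles. Igf2bp1 and Lin28b lay under the first percentile in both groups.

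**Figure D2:**
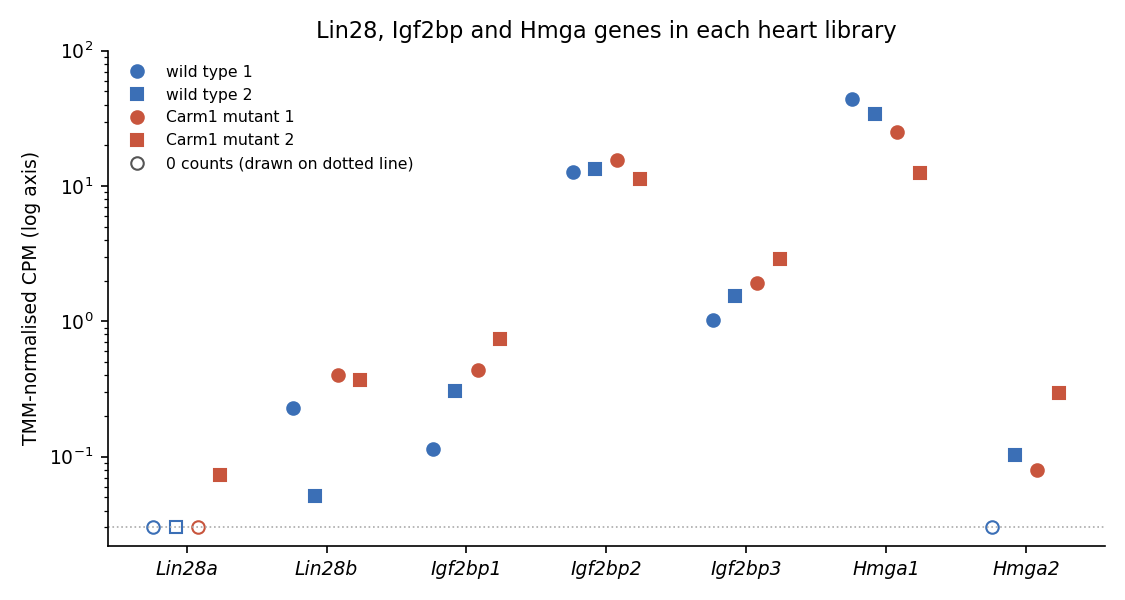
TMM-scaled CPM of each member in each of the 4 libraries, on a log axis, with wild type in blue, mutant-labelled libraries in red, circles for replicate 1 and squares for replicate 2. Open symbols on the dotted line are libraries with 0 counts. Hmga1 has its highest value in wild type replicate 1 (44.4 CPM) and its lowest in mutant-labelled replicate 2 (12.4 CPM), Igf2bp2 overlaps between the groups, and Lin28a and Hmga2 lie at or near 0.

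No member was called between the genotypes. Of the 7 members 4 passed the filter on low counts, which asks for 10 counts at the median library size in at least 2 libraries. Igf2bp2, Igf2bp3 and Hmga1 passed it in all 4 libraries. Igf2bp1 passed through the 2 mutant-labelled libraries alone, where it was higher. Lin28a, Lin28b and Hmga2 reached it in 0 libraries and were not tested. Among the 4 tested members edgeR called 0, where 1 had an unadjusted p below 0.05, limma-voom called 0, and the Wald test of DESeq2 called 1, Hmga1. At that unadjusted threshold 4245 of all 15283 genes passed. Over all genes tested the Wald test of DESeq2 called 1709, limma-voom 1128 and edgeR 1126.

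**Figure D3:**
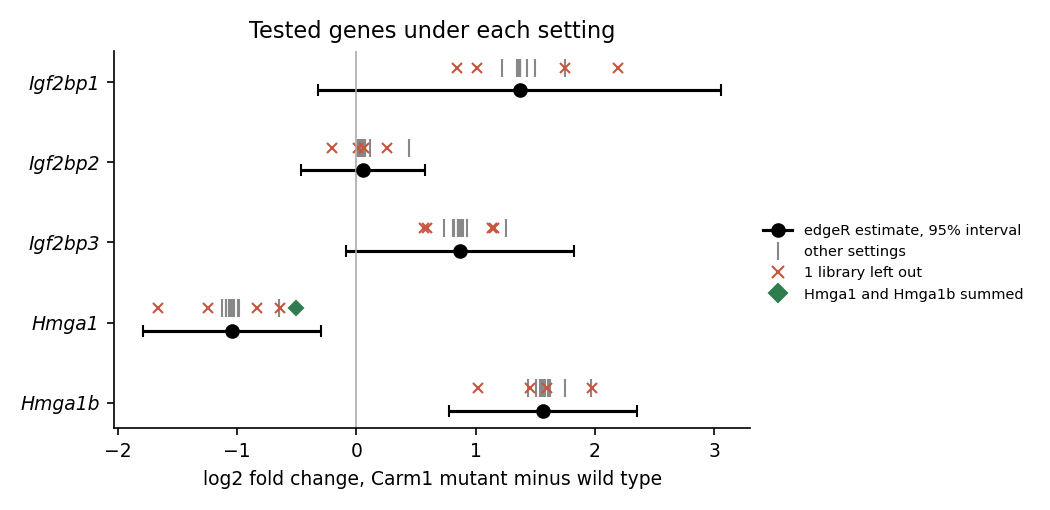
Log2 fold change of mutant-labelled over wild type for the 4 tested members and for Hmga1b, with 95% intervals from the edgeR fit (black). Grey ticks, red crosses and a green diamond give the estimates under other settings, with 1 library left out and with Hmga1 and Hmga1b summed. The intervals of Igf2bp1, Igf2bp2 and Igf2bp3 include 0, that of Hmga1 runs from −1.79 to −0.30 with an FDR of 0.0875, and that of Hmga1b runs from 0.78 to 2.35 with an FDR of 0.0356.

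The LIN28 proteins, which recognise the precursors of let-7, had almost no message. Lin28a (ENSMUSG00000050966, chr4:134003330-134018841, minus strand) had 0 counts in 3 libraries and 1 count in mutant-labelled replicate 2. Lin28b (ENSMUSG00000063804, chr10:45376620-45486395, minus strand) had 4 and 1 counts in wild type against 10 and 5 counts in mutant-labelled hearts. This was 0.229 and 0.051 CPM against 0.398 and 0.368 CPM, so both mutant-labelled values lay above both wild-type values. Among the genes that passed the filter, which Lin28b did not, this held for 30.3%. Summed over the groups, Lin28b had 5 counts against 15. Its ratio of counts per scaled library was 2.88, with an exact 95% interval of 0.993 to 10.1 that covers counting error only and includes 1. A floor of 3 counts corresponds to between 0.119 and 0.221 CPM on the same TMM scale, depending on the library. Fitted without a filter, Lin28b had a log2 fold change of 1.44 (SE 1.04, edgeR FDR 0.53). At these counts only a large change in either Lin28 gene could have been detected, and no change was. The 2 proteins have 209 and 271 residues and share 70.6% of 197 aligned residues, by translation of the annotated coding sequences.

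The 3 IGF2BP genes encode close relatives that share 68.4% to 75.3% of aligned residues, Igf2bp1 and Igf2bp3 being the closest pair. Igf2bp2, the family member best known from adult tissue, made up most of the family's message. Igf2bp2 (ENSMUSG00000033581, chr16:22059009-22163299, minus strand) had 221 and 260 counts in wild type against 390 and 153 in mutant-labelled hearts. That was 12.6 and 13.3 CPM against 15.5 and 11.2 CPM, and the wild-type pair lay between the mutant-labelled values. The log2 fold change was 0.06 (SE 0.22, edgeR FDR 0.891). The 95% interval ran from −0.46 to 0.58, so a level between 72.7% and 149% of wild type fits these libraries. Without mutant-labelled replicate 1 the log2 fold change was −0.21.

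Igf2bp3, whose product is best known from embryonic tissue and tumours, had higher values in both mutant-labelled libraries but was not called. Igf2bp3 (ENSMUSG00000029814, chr6:49085223-49214957, minus strand) had 18 and 30 counts in wild type against 48 and 39 in mutant-labelled hearts. Its level was 1.03 and 1.53 CPM, a mean of 1.28 ± 0.36 CPM (SD, n = 2), against 1.91 and 2.87 CPM, a mean of 2.39 ± 0.68 CPM. The groups did not overlap, again like 30.3% of all genes tested. The log2 fold change was 0.87 (SE 0.41, 95% interval −0.08 to 1.82, edgeR FDR 0.214). Counting error alone gave a ratio of 1.74 (exact 95% interval 1.21 to 2.53), narrower than the interval that includes the spread between libraries. The last 1529 bases of the 4345-base Igf2bp3 transcript lie within Malsu1, a gene of the mitochondrial ribosome on the opposite strand. Malsu1 had 474 and 337 counts against 380 and 211, a log2 fold change of −0.53 (edgeR FDR 0.209), the opposite direction. No source used here says whether the counting used strand, so reads in that stretch cannot be assigned to either gene.

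Igf2bp1, the third of the family and a binder of the Actb, Myc and H19 transcripts, was near the detection limit. Igf2bp1 (ENSMUSG00000013415, chr11:95957163-96005940, minus strand) had 2 and 6 counts in wild type against 11 and 10 in mutant-labelled hearts. In CPM this was 0.114 and 0.306 against 0.438 and 0.735, without overlap between the groups, as for 30.3% of all genes tested. The ratio of group counts was 2.52 (exact 95% interval 1.07 to 6.57), and the log2 fold change was 1.37 (SE 0.73, 95% interval −0.32 to 3.06, edgeR FDR 0.263). It entered the test through its mutant-labelled values, so the filter itself favoured a higher value there.

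Per length, Igf2bp2 made up 92.8% and 89.7% of the summed Igf2bp level in wild type against 89.0% and 79.4% in mutant-labelled hearts. Igf2bp3 made up 6.78% and 9.29% against 9.83% and 18.2%. Igf2bp1 made up 0.391% and 0.964% against 1.17% and 2.42%. For each of the 3 genes the shares of the groups did not overlap, but they lay close together in wild type replicate 2 and mutant-labelled replicate 1. The 3 shares of a library add up to the whole, so they are not 3 separate results. An exact two-sided permutation test gave p = 0.333 for each share, the smallest value that 2 against 2 libraries allow. The summed level itself was 3.49 and 3.79 against 4.48 and 3.63 CPM per kilobase, and the groups overlapped.

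Among the 4 tested members Hmga1, which encodes the AT-hook protein found beyond the embryo in dividing cells, was the one with lower values in the mutant-labelled hearts. Hmga1 (ENSMUSG00000046711, chr17:27556497-27563674, plus strand) had 776 and 667 counts in wild type against 634 and 169 in mutant-labelled hearts. Scaled by TMM this was 44.4 and 34.0 CPM, a mean of 39.2 ± 7.3 CPM, against 25.3 and 12.4 CPM, a mean of 18.8 ± 9.1 CPM. Both mutant-labelled libraries lay below both wild-type libraries, as for 28.7% of all genes tested, and mutant-labelled replicate 2 lay farthest down. The log2 fold change was −1.04 (SE 0.32, 95% interval −1.79 to −0.30), which is 48.6% of the wild-type level with an interval of 29.0% to 81.5%. With an unadjusted edgeR p of 0.0123 and an FDR of 0.0875 the difference did not pass the threshold over all genes.

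Mutant-labelled replicate 2 weighed heavily on the Hmga1 value. Without it the log2 fold change was −0.64, and without mutant-labelled replicate 1 it was −1.66. Without wild type replicate 2 it was −1.24, and without wild type replicate 1 it was −0.84. Whether Hmga1 was called depended on the library left out, as did the number called over all genes tested. The log2 fold change of Hmga1 stayed below 0 in all 19 alternatives. 1 of these was the sum with Hmga1b described below, and another was the same fit read at an FDR of 0.10. With all 4 libraries, its edgeR adjusted p ran from 9.3e-07 (crossed replicate blocks) to 0.186 (library totals). The crossed pairing was chosen from the deviations of these same libraries, so its p is no separate support. Scaling by library totals, which moved the median over all genes tested by 0.39 on the log2 scale, gave −0.64 for Hmga1. With no filter on low counts (−1.05, FDR 3.7e-04) and with a trend for transcript length in the fit (−0.98, FDR 0.0434) Hmga1 was called lower.

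The value of Hmga1 also depends on a near-identical second gene, Hmga1b, which was chosen after its values were seen. Hmga1b (ENSMUSG00000078249, chr11:120762794-120764419, plus strand) has a single exon of 1626 bases. Over 1602 aligned bases the Hmga1b and Hmga1 transcripts differed at 3 positions, all of them in the 3′ UTR, and the longest identical run was 656 bases. Their 321-base coding sequences, for 107 residues, were identical in 5 annotated Hmga1 transcripts, so reads from this stretch fit both genes. The part that holds the AT hooks is shown because it is the functional core of the protein and because it is the same in both genes. It is bases 64 to 273 of the coding sequence, spliced from chr17:27559632-27562440 on the plus strand. The capitals mark the codons of the arginine-glycine-arginine-proline core of the 3 AT hooks, which begin at residues 26, 58 and 84.
Hmga1 and Hmga1b: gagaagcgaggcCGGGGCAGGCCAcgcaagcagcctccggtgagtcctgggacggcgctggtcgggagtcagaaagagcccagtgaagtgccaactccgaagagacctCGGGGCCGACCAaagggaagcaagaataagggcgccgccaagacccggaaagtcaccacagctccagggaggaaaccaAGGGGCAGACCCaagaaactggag

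Hmga1b went the opposite way to Hmga1. It had 69 and 71 counts in wild type against 194 and 203 in mutant-labelled hearts. Its level was 3.94 and 3.62 CPM, a mean of 3.78 ± 0.23 CPM, against 7.73 and 14.9 CPM, a mean of 11.3 ± 5.1 CPM. The log2 fold change was 1.57 (SE 0.34, 95% interval 0.78 to 2.35, edgeR FDR 0.0356), so Hmga1b was called higher. Over 18 alternatives its log2 fold change ran from 1.02, without mutant-labelled replicate 2, to 1.98. The call was lost without that library and with limma-voom (1.44, FDR 0.0513). The lowest edgeR adjusted p, 6.6e-08, came from crossed replicate blocks, a pairing chosen from these same libraries. The library with the lowest Hmga1 value, mutant-labelled replicate 2, was the one with the highest Hmga1b value.

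Of the counts assigned to either gene, Hmga1b held 8.17% (exact 95% interval 6.41% to 10.2%) and 9.62% (7.59% to 11.98%) in the wild-type libraries. In the mutant-labelled libraries it held 23.4% (20.6% to 26.5%) and 54.6% (49.4% to 59.7%). The group means were 8.89 ± 1.03% and 39.0 ± 22.02% (exact two-sided permutation p = 0.333, the smallest possible). Intervals cover counting error only, and those of the mutant-labelled libraries do not overlap each other. No source used here says how the authors' counting divided or dropped reads that match both genes. The sum of both genes does not depend on how reads were divided between them. It does depend on whether shared reads were dropped or counted for both. The sum was 48.3 and 37.7 CPM in wild type against 33.0 and 27.4 CPM (43.0 ± 7.5 against 30.2 ± 4.0 CPM). Fitted as 1 row, the sum had a log2 fold change of −0.51 (SE 0.21, edgeR FDR 0.163) and was not called. The lower value of Hmga1 alone and the higher value of Hmga1b are therefore both uncertain.

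**Figure D4:**
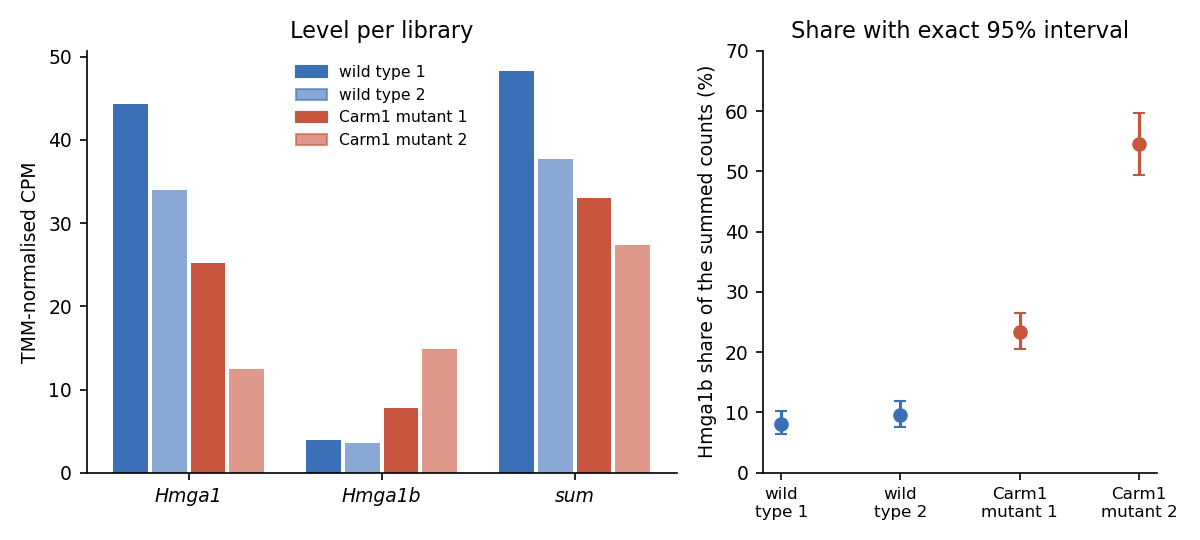
Left, TMM-scaled CPM of Hmga1, of Hmga1b and of their sum, 1 bar per library (wild type blue, mutant-labelled red). Right, percentage of the summed counts assigned to Hmga1b in each library with its exact 95% interval. Hmga1 lies lower and Hmga1b higher in both mutant-labelled libraries, while the sum is 48.3 and 37.7 CPM in wild type and 33.0 and 27.4 CPM in the mutant-labelled libraries.

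Further loci overlap the Hmga1 gene on the opposite strand. AI413582 shares 102 bases with it and had 81 and 86 counts against 116 and 72. Gm49774 shares 22 bases and had at most 4 counts in a library. Hmga2 (ENSMUSG00000056758, chr10:120361275-120476469, minus strand), the relative of Hmga1 best known from embryonic growth, was close to absent from the count table. It had 0 and 2 counts in wild type against 2 and 4 in mutant-labelled hearts, a ratio of 2.88 with an exact 95% interval of 0.514 to 29.1. At these counts only a large change in Hmga2 could have been detected, and the interval includes 1. Hmga2 and Hmga1 share 56.4% of 94 aligned residues. The antisense gene 1700006J14Rik overlaps 20180 bases of Hmga2 and had 2 counts in mutant-labelled replicate 2 and 0 in the other libraries.

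Genes that act around the members were described by fixed lists, set against 7.37% called and a median log2 fold change of 0.02 over all genes tested. Among 22 tested genes of let-7 processing and turnover edgeR called 0, limma-voom and DESeq2 also called 0, and 0 had an unadjusted p below 0.05. Their median log2 fold change was 0.10. The most abundant were Ddx5 and Ddx17, RNA helicases that assist the Drosha complex. Ddx5 had 421.9 ± 38.4 CPM in wild type and 456.8 ± 30.1 CPM in the mutant-labelled hearts (log2 fold change 0.12, edgeR FDR 0.761). Ddx17 had 161.5 ± 75.2 against 237.4 ± 13.8 CPM (0.56, FDR 0.289). With wild type replicate 2 left out the median of the list was 0.18, against 0.03 over all genes tested. Leaving out wild type replicate 1 gave −0.05 against 0.02. The number called in the list depended on the library left out, as it did over all genes tested. Crossed replicate blocks, a pairing chosen from these same libraries, gave 3 called higher in the list. Over all genes tested that pairing called 2037 higher, against 426 in the fit without blocks. The let-7 hairpins had 0 counts in every library, so mature let-7 was not measured here. Trim71, an embryonic let-7 target, had 0 and 0 against 2 and 2 counts and was not tested.

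Among 25 tested let-7 targets of the textbooks, with the members left out, 1 was called higher and 0 lower, and 19 had a log2 fold change above 0. DESeq2 size factors gave 0 higher, and library totals gave 6, where 1189 of all genes were called higher against 426 with TMM. The median log2 fold change was 0.37, and 0.77 with scaling by library totals, where all genes tested had 0.41. Leaving out 1 library gave medians of the list between 0.25 (without wild type replicate 1) and 0.60 (without wild type replicate 2). The number called depended on the library left out, as it did over all genes tested. Named after their values were seen, the G1 cyclin gene Ccnd1 (log2 fold change 0.89, FDR 0.0586) and the transcription factor gene Mycn (0.72, FDR 0.0939) did not pass. The part that the higher proliferation markers of the same libraries have in these values was not tested.

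The wider set of 171 tested genes with at least 2 let-7 seed matches, none of them a member, had 1 called higher and 6 lower. Scaling by library totals gave 4 higher and 2 lower, with a median log2 fold change of 0.47. Over all genes tested, that scaling moved the calls from 426 higher and 700 lower to 1189 and 206, with a median of 0.41. The median of the set was 0.08 with TMM, and −0.05 once a trend with transcript length was put in the fit. Its genes had long transcripts, with a median of 5826 bases against 2957 over all genes tested. The genes called lower with the smallest adjusted p were Chp1 (−1.10, edgeR FDR 0.0195), Lrrc20 (−1.19, FDR 0.0203), Acat1 (−1.23, FDR 0.0245) and Tuba4a (−1.44, FDR 0.0401). Chp1 encodes a calcium-binding partner of sodium-proton exchangers and Acat1 a mitochondrial thiolase of ketone metabolism. How many genes of the set were called depended on the library left out, as it did over all genes tested. With 1 library left out, the log2 fold change of Chp1 stayed between −1.15 and −1.08, and that of Tuba4a between −1.87 and −0.91.

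Among 14 RNAs bound by IGF2BP proteins 1 was called higher and 0 lower, with a median log2 fold change of 0.32. Scaling by library totals gave 3 called higher, with a median of 0.71. That scaling called 1189 of all genes tested higher, against 426 with TMM, and their median was 0.41. Dropping wild type replicate 2 moved the median of these RNAs to 0.39, where all genes tested had 0.03. Dropping wild type replicate 1 moved it to 0.21, where all genes tested had 0.02. How many of these RNAs were called varied with the library dropped, and so did the number over all genes tested. The called gene was Mki67, the proliferation marker Ki-67, which rose from 10.3 ± 4.1 CPM in wild type to 40.5 ± 2.5 CPM, a log2 fold change of 1.97 (SE 0.28, edgeR FDR 0.0130). Igf2 and H19, imprinted transcripts long known as ligands of the family, were named after their values were seen. Igf2 had 89 and 206 counts in wild type against 266 and 104 in mutant-labelled hearts (log2 fold change 0.23, FDR 0.709). H19 had 2259 and 3455 against 5389 and 2854 counts (0.48, FDR 0.211). Among 22 writers, erasers and other readers of m6A, 1 was called higher and 0 lower, with a median of −0.08. With library totals the median was 0.32, below the 0.41 over all genes tested. Here too the number called depended on the library left out. The called gene was Fmr1, an X-linked RNA-binding gene, which rose from 11.7 ± 3.6 to 26.6 ± 1.4 CPM (1.18, SE 0.24, FDR 0.0310), and the call was lost without mutant-labelled replicate 1 (FDR 0.0877).

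Of 19 tested genes of the other high mobility group families, 1 was called higher and 1 lower, and the median log2 fold change was 0.04. Hmgb2, a chromatin protein of dividing cells, rose from 16.3 ± 2.2 to 28.4 ± 1.3 CPM (0.81, SE 0.19, edgeR FDR 0.0471). The X-linked Hmgb3 fell from 37.2 ± 8.8 to 17.3 ± 3.2 CPM (−1.11, SE 0.24, FDR 0.0347). Without mutant-labelled replicate 1 both calls were lost (FDR 0.379 for Hmgb2 and 0.272 for Hmgb3), and so they were without replicate 2 (0.278 and 0.0614). The Hmgb2 call was also lost with DESeq2 size factors (FDR 0.0534), the replicate block (0.0714) and thinning to the smallest library (0.0661), and the Hmgb3 call with library totals (−0.69, FDR 0.0878). Without wild type replicate 2 the median of the list was 0.03, and 0.03 over all genes tested. Of 12 tested fetal growth genes, 1 was called higher and 0 lower, with a median of 0.48. With scaling by library totals the median was 0.86, against 0.41 over all genes tested. Without wild type replicate 2 it was 0.82, against 0.03. The number called depended on the library left out, as it did over all genes tested. The Wald test of DESeq2 and library totals each gave 3 calls, with 1709 and 1395 over all genes tested against 1126. The gene called in the edgeR fit of all 4 libraries was the imprinted gene Mest, which rose from 29.3 ± 0.7 to 97.3 ± 4.9 CPM (1.73, SE 0.19, FDR 0.00647) and had a higher level in both mutant-labelled libraries than in either wild-type library. Afp, the fetal serum protein that is the usual example of an oncofetal gene, had 0 counts in all 4 libraries.

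**Figure D5:**
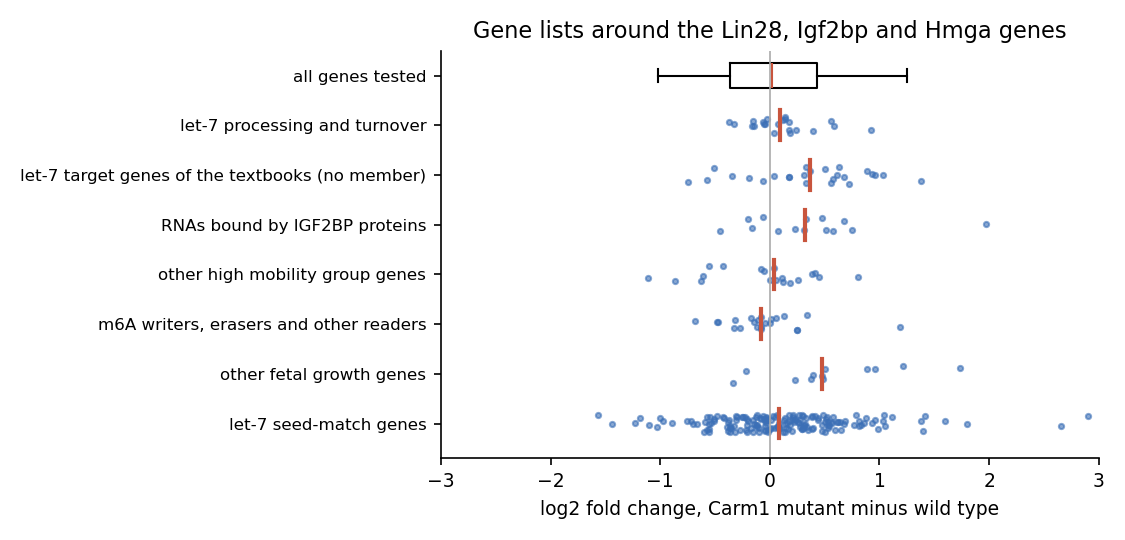
Log2 fold change of mutant-labelled over wild type for the tested genes of each fixed list, 1 point per gene, with the median of each list as a red line, above it all 15283 genes tested (median 0.02) as a box of the quartiles with whiskers to percentiles 5 and 95. With TMM scaling, medians lie between −0.08 for the m6A genes and 0.48 for the fetal growth genes. With library totals the m6A genes have a median of 0.32 and all genes tested 0.41.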

How the data were processed

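RNA of mouse hearts was measured in 4 libraries. The authors deposited raw counts per gene, used as deposited. Per the submitters' processing notes FastQC, HISAT2 and the mm10 build were used; versions, the counting program, strand and the treatment of reads with several matches are not stated in those notes or the labels. Names, coordinates (counted from 1), transcripts and UTRs come from GENCODE M21 on GRCm38, the assembly of mm10, which named 54723 of 54752 identifiers; let-7 sequences come from RefSeq (GRCm38.p6).

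Genes were kept with filterByExpr (15283), scaled by TMM (factors 0.806, 0.943, 1.13 and 1.16, wild type before mutant-labelled) and tested with edgeR 4.0.16 (R 4.3.3; glmQLFit, glmQLFTest, genotype as the only term, 2 residual degrees of freedom), with Benjamini-Hochberg adjustment at 0.05. DESeq2 1.42.0 and limma 3.58.1 served as alternatives, among 17 planned and 2 added after the data were seen. A floor is 3 counts, and exact intervals are Clopper-Pearson 95% intervals or derive from them. Transcripts were compared with BLAST+ 2.17.0. The steps were tested on simulated data.

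The members and lists were chosen with earlier results of these data known. The rule names all members, Carm1, and from each list up to 4 called genes by adjusted p or, with none called, the 2 most abundant; genes outside it are marked as named after their values were seen. Earlier symbols in the lists were matched to Tut4, Tut7 and Lncppara, and Hmgn4 was not matched. The values of 1 called gene of the lists are not reported here.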

Additional observations from a re-analysis of the deposited data

How the results depend on the processing

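All genes called numbered 1126, and 2630 with no filter, 1709 with DESeq2's Wald test, 2998 with a transcript length trend in the offsets, 4176 with crossed replicate blocks and 2488 at an FDR of 0.10; leaving out 1 library gave 377 (mutant-labelled replicate 2) to 5679 (wild type replicate 2). Scaling by library totals gave 1189 higher and 206 lower, and upper-quartile factors 506 and 554, against 426 and 700. No alternative called a member higher. In place of 0 members called lower there was 1, Hmga1, with no filter (log2 fold change −1.05), DESeq2's Wald test (−1.07), the length trend (−0.98), the replicate block (−1.12), crossed blocks and an FDR of 0.10; leaving out 1 library gave 0 to 1. The log2 fold change of Igf2bp2 reversed to −0.21 without mutant-labelled replicate 1, the lowest of the values with 1 library left out, which reached 0.26. Igf2bp1 kept between 0.85 and 2.20 over 16 alternatives, and Igf2bp3 between 0.57 and 1.25 over 19, without a call. The cause of these shifts was not tested. The labels do not say whether replicate numbers pair the libraries. Same-numbered libraries deviated with r = −0.247 over 15283 genes. With 2 libraries per group this value cannot show whether they were paired. The replicate block gave 1222 calls (580 higher, 642 lower), and the crossed pairing, added after the data were seen, gave 4176. Deviations of libraries tracked transcript length, with Spearman's rho between −0.347 and 0.281. Depth left Lin28a, Lin28b and Hmga2 without a test. A group reduced to 1 library was assumed to vary like the other.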
